A study of Arabidopsis thaliana with 4 samples.

Results

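The beta-glucosidase genes of glycoside hydrolase family 1 (GH1) were followed in Arabidopsis thaliana floral buds, with the tapetum-expressed member ATA27 (locus AT1G75940) set against the rest. Members were the probe sets whose only gene symbol in the array's platform annotation is BGLU with a number, plus the probe set of ATA27, whose synonym is BGLU20. The rule gave 21 genes, each with 1 probe set, out of 22746 probe sets on the array. The tested plants carried the cdm1 mutation (callose defective microspore1) in Col-0, and the controls were wild type Col-0 plants. Each genotype had 2 biological replicates and 1 array per replicate. Total RNA came from unopened buds of plants 24 days after germination. The labels name no cdm1 allele and no number of plants per replicate. The growth protocol speaks of a moderate drought for some plants, and no label ties it to any of these samples.

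GH1 beta-glucosidases remove glucose from small molecules that plants store or move as glucosides. Known substrates in Arabidopsis include glucosinolates, flavonol glycosides, monolignol glucosides such as coniferin, the coumarin glucoside scopolin and the glucose ester of abscisic acid. Several members sit in the endoplasmic reticulum or its derived ER bodies, others in the vacuole or the cell wall. They are a different family from the beta-1,3-glucanases that digest callose. The tapetum is the secretory cell layer that lines the anther chamber and supplies the developing pollen.

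The replicates correlated at r = 0.996 for cdm1 and r = 0.998 for wild type over the probe sets of the array (genes are not independent replicates), and the pairs of unlike genotype at 0.990 to 0.994. CDM1 itself has no named probe set, so the mutated gene gave no check of the labels. Anther tissue was represented on every array: the tapetal lipid transfer protein gene A9 read 12.30 and 12.40 in cdm1 buds and 12.20 and 12.25 in wild type buds, as log2 values of robust multi-array average (RMA) expression. The tapetal transcription factor gene AMS read 11.29 and 11.26 in cdm1 and 11.09 in both wild type arrays. None of the 7 floral organ identity genes listed for this purpose had a named probe set.

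In cdm1 buds no beta-glucosidase gene passed the test over all probe sets, and the members lay on both sides of 0. BGLU28, a gene of glucosinolate breakdown, had the largest difference, at 2.31 on the log2 scale, and ATA27 came next at 0.94. BGLU33, which encodes an abscisic acid glucose ester hydrolase, stood at 0.69 and BGLU40 at 0.41. On the other side stood BGLU45, which encodes a monolignol glucosidase, at -0.77, and BGLU41 at -0.31. The other 15 members lay within 0.26 of 0.

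The test was limma's moderated linear model, with p-values adjusted by Benjamini-Hochberg for the 22746 probe sets. Of the 21 members, 0 passed an adjusted p of 0.05, against 1.33% of all probe sets (0.602% higher and 0.730% lower in cdm1). The limma adjusted p-values of the members ran from 0.0674 for BGLU28 to 0.996 for BGLU44. At an unadjusted p of 0.05, 7 members passed in limma (5 higher and 2 lower in cdm1), against 15.3% of all probe sets (7.70% higher and 7.55% lower). The 5 were BGLU28, ATA27, BGLU33, BGLU40 and BGLU15, and the 2 were BGLU45 and BGLU41. The median log2 fold change was 0.021 over the members and 0.0036 over all probe sets, with 11 members above 0, as were 51.0% of all probe sets, and 10 below. The members' median was 0.21 over the 12 members left when the dimmest 33.3% of probe sets were removed, and 0.0049 to 0.084 with 1 array left out. The median size of the difference, whatever its sign, was 0.21 for the members and 0.11 for all probe sets. In 12 members the values of the genotypes did not overlap, 8 higher and 4 lower in cdm1. The same held for 47.3% of all probe sets, 23.7% higher and 23.6% lower.

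**Figure D1:**
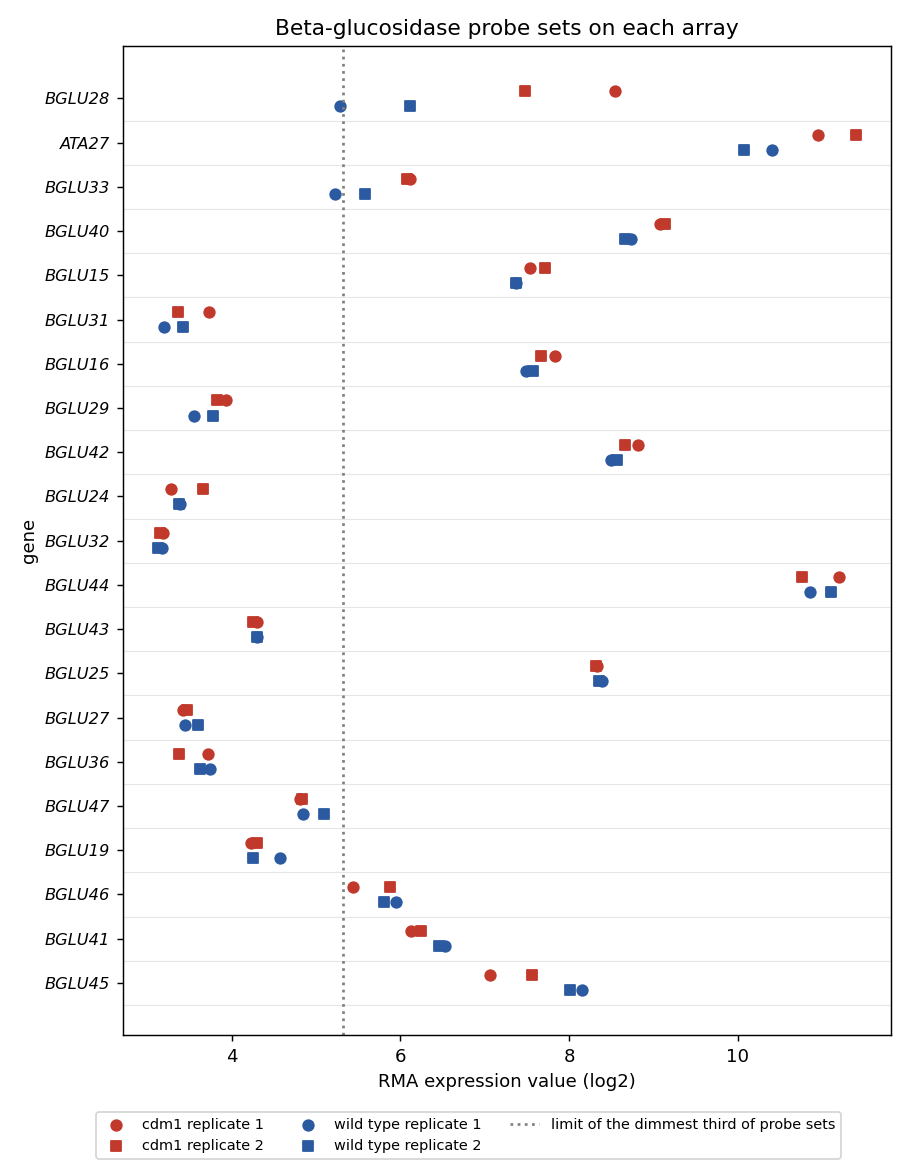
RMA expression value (log2, horizontal axis) of each of the 21 beta-glucosidase genes on each array, with cdm1 in red above wild type in blue, circles for replicate 1 and squares for replicate 2. Genes run from the highest to the lowest log2 fold change, and the dotted line at 5.32 marks the level under which the dimmest 33.3% lie. BGLU28, ATA27, BGLU33, BGLU40, BGLU15, BGLU16, BGLU29 and BGLU42 have both cdm1 values above both wild type values. BGLU25, BGLU47, BGLU41 and BGLU45 have both below. The genotypes did not overlap in 47.3% of all probe sets.

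ATA27 encodes a beta-glucosidase of the tapetum. It read 10.96 and 11.40 in cdm1 buds and 10.41 and 10.07 in wild type buds. Both cdm1 arrays lay above both wild type arrays, and the gap between the nearest values of the genotypes (10.96 and 10.41) was wider than the gap within either genotype. The means were 11.18 ± 0.31 in cdm1 and 10.24 ± 0.24 in wild type (SD, n = 2 arrays each). The log2 fold change of 0.94 (SE 0.18, 95% interval 0.49 to 1.39) corresponds to 1.91-fold, with a limma adjusted p of 0.0905. The call turned on the setting: the limma adjusted p was 0.0383 without cdm1 replicate 1 and 0.0396 with a robust intensity trend in the variance, and it ran up to 0.443 over the alternatives. In RNA from whole buds, a different number of cells of a type and a different amount of RNA per cell cannot be told apart, in either direction.

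Measured against its own family, ATA27 had a higher log2 fold change than 19 of the 20 other members. The others had a median of 0.0084 and a mean of 0.14, and their mean was 0.025 once BGLU28 was set aside. ATA27 stood 0.93 above their median. A log2 fold change at least as high as that of ATA27 was found in 129 of the 22746 probe sets (0.567%). Within each array, ATA27 minus the mean of the 20 others was 4.92 and 5.41 in cdm1 and 4.58 and 4.16 in wild type, on the log2 scale, with no overlap between the genotypes. These are given as a description, with no test of ATA27 against the other members.

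**Figure D2:**
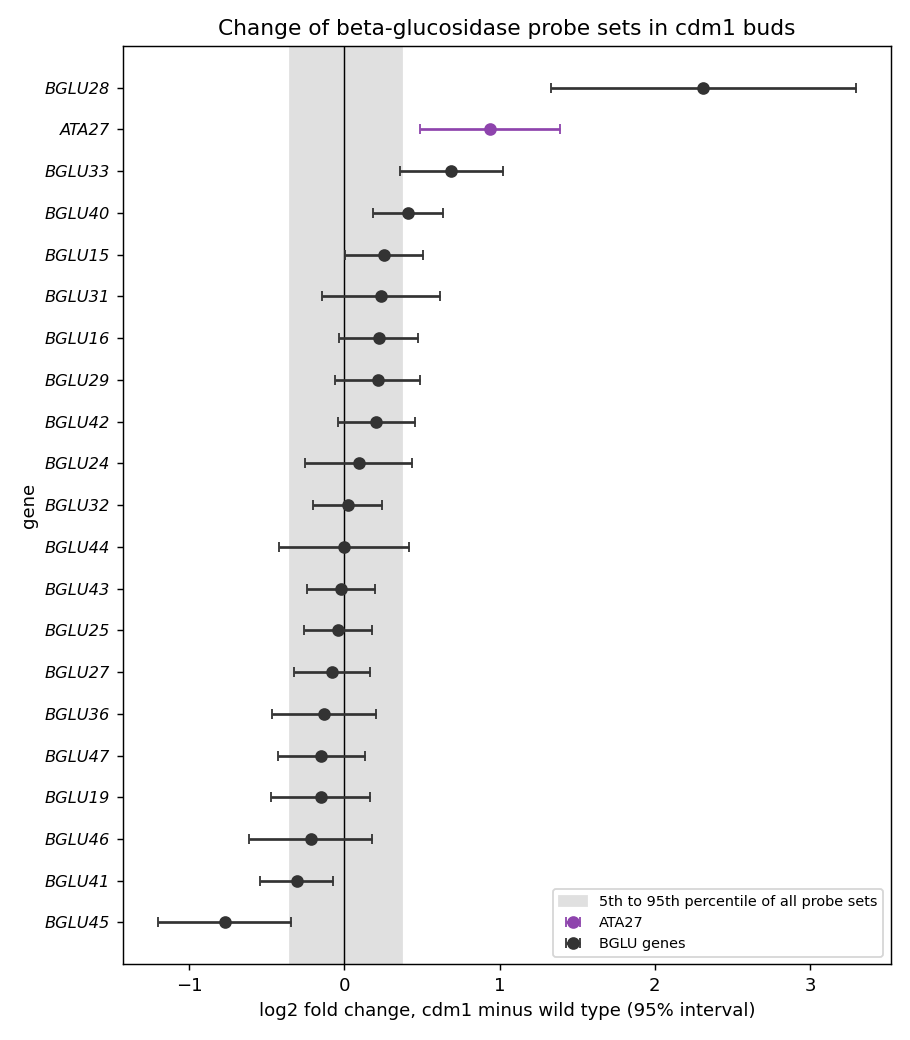
Log2 fold change of each member (cdm1 minus wild type, horizontal axis) with the 95% interval of limma's moderated model, for ATA27 in purple and the BGLU genes in black. The grey band spans the 5th to the 95th percentile of all probe sets, from -0.35 to 0.37. BGLU28, ATA27, BGLU33, BGLU40 and BGLU45 lie outside the band, and the intervals of 14 of the 21 members include 0.

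BGLU28 (AT2G44460) takes part in glucosinolate breakdown, which it is known for under sulphur shortage. It read 8.54 and 7.48 in cdm1 buds and 5.28 and 6.11 in wild type buds. The genotypes did not overlap, and the nearest values of the genotypes were 7.48 and 6.11. The replicates were far apart in both genotypes, by 1.06 in cdm1 and by 0.84 in wild type. The log2 fold change was 2.31 (SE 0.40, 95% interval 1.33 to 3.29, adjusted p in limma = 0.0674), a ratio of 4.97 between RMA values, and its SE was the largest of the 21 members. Only 5 of the 22746 probe sets (0.0220%), BGLU28 included, had a log2 fold change this high. BGLU28 passed the test with an intensity trend in the variance (adjusted p in limma = 0.0484) and without cdm1 replicate 2 (0.0136), and over the alternatives its adjusted p ran from 0.0136 to 0.430. Wild type replicate 1 lay below 5.32, the level under which the dimmest 33.3% of the array lies. Its signal was not tested against background.

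BGLU28 stands between BGLU15 and BGLU29 in gene order. BGLU15 encodes a hydrolase of flavonol glycosides, and read 7.54 and 7.72 in cdm1 and 7.37 in both wild type arrays, for a log2 fold change of 0.26 (SE 0.10, adjusted p in limma = 0.317). BGLU29 read 3.93 and 3.82 in cdm1 and 3.55 and 3.77 in wild type, for a log2 fold change of 0.21 (SE 0.11, adjusted p in limma = 0.433), at levels among the dimmest of the array. All 3 neighbours had both cdm1 values above both wild type values, as did 23.7% of all probe sets, and the difference of BGLU28 was the widest of the 3.

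BGLU45 and BGLU46, also direct neighbours, encode glucosidases that release monolignols, the building blocks of lignin, from their glucosides, and BGLU47 belongs to the same branch of the family. BGLU45 (AT1G61810) read 7.06 and 7.56 in cdm1 buds and 8.16 and 8.01 in wild type buds, with no overlap and with more spread between the cdm1 arrays. Its log2 fold change was -0.77 (SE 0.18, 95% interval -1.20 to -0.34, adjusted p in limma = 0.126), a level 1.71-fold lower. It passed the test without cdm1 replicate 2, at -1.02 (adjusted p in limma = 0.0157), and its adjusted p ran from 0.0157 to 0.663 over the alternatives.

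The other members of that branch differed less. BGLU46 read 5.44 and 5.88 in cdm1 and 5.94 and 5.81 in wild type, so that the genotypes overlapped, with a log2 fold change of -0.22 (SE 0.16). It turned to 0.0039 without cdm1 replicate 1. BGLU47 read 4.80 and 4.83 in cdm1 and 4.84 and 5.09 in wild type, for a log2 fold change of -0.15 (SE 0.11) at a dim level.

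BGLU33 (AT2G32860) encodes a vacuolar hydrolase that frees abscisic acid from its glucose ester. It read 6.11 and 6.08 in cdm1 and 5.23 and 5.58 in wild type. The cdm1 replicates were close to each other and the wild type replicates 0.35 apart, and the genotypes did not overlap. The log2 fold change was 0.69 (SE 0.14, 95% interval 0.36 to 1.02, adjusted p in limma = 0.0905), with adjusted p-values from 0.0747 to 0.476 over the alternatives. Of its wild type values, the one of replicate 1 lay below 5.32.

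BGLU40 (AT1G26560) had a smaller difference with little spread. It read 9.08 and 9.13 in cdm1 and 8.73 and 8.66 in wild type, and the log2 fold change was 0.41 (SE 0.092, 95% interval 0.18 to 0.63, adjusted p in limma = 0.122). BGLU41 (AT5G54570) read 6.12 and 6.24 in cdm1 and 6.52 and 6.46 in wild type, for a log2 fold change of -0.31 (SE 0.097, adjusted p in limma = 0.222). Both genes had genotypes that did not overlap, and neither passed the test under any of the 10 alternatives.

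**Figure D3:**
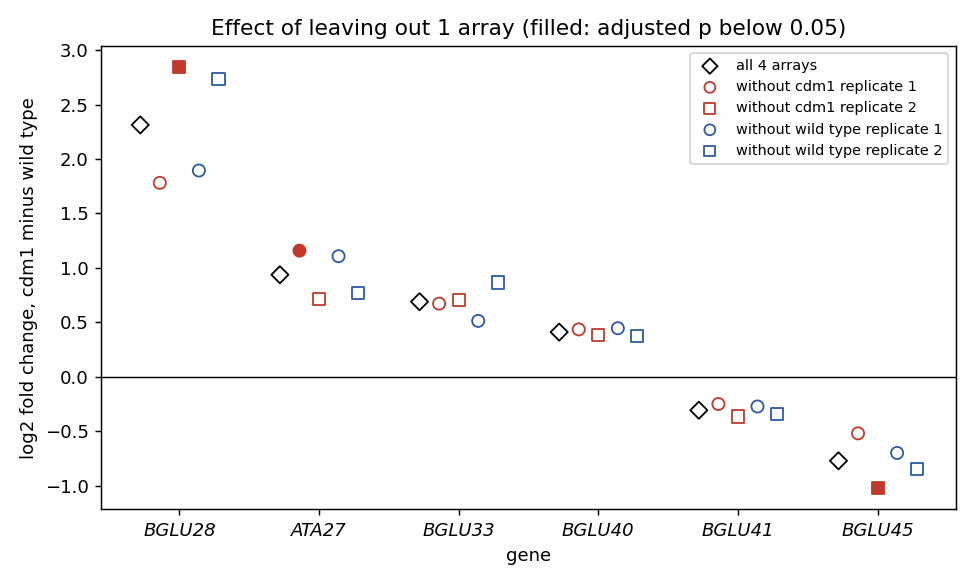
Log2 fold change (cdm1 minus wild type) of the 6 members that differed by at least 0.3, with all 4 arrays (black diamonds) and with each array left out (red for cdm1, blue for wild type). Filled symbols passed limma's adjusted p of 0.05: ATA27 without cdm1 replicate 1, and BGLU28 and BGLU45 without cdm1 replicate 2. The sign of all 6 is the same in each of these fits.

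The remaining well-lit members differed little between the genotypes. BGLU44, which encodes a hydrolase of manno-oligosaccharides, read 11.20 and 10.76 in cdm1 and 10.86 and 11.11 in wild type. Its genotypes overlapped, its replicates differed more than its means, and the log2 fold change was -0.0043 (95% interval -0.42 to 0.41), turning to 0.0064 after median centring. BGLU25 read 8.34 and 8.32 in cdm1 and 8.39 and 8.35 in wild type, for a log2 fold change of -0.040 (95% interval -0.26 to 0.18).

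BGLU42 encodes the glucosidase that releases the coumarin scopoletin from scopolin in roots. It read 8.82 and 8.66 in cdm1 and 8.50 and 8.57 in wild type, for a log2 fold change of 0.21 (95% interval -0.044 to 0.45). BGLU16 read 7.83 and 7.67 in cdm1 and 7.49 and 7.58 in wild type, for a log2 fold change of 0.22 (95% interval -0.032 to 0.48). In both genes the cdm1 values lay above those of wild type by a margin smaller than the spread within cdm1.

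A further 9 members read below 5.32 on all 4 arrays, between 3.12 and 5.09: BGLU19, BGLU24, BGLU27, BGLU29, BGLU31, BGLU32, BGLU36, BGLU43 and BGLU47. BGLU36 belongs to the myrosinase branch, whose enzymes cleave glucosinolates. All 4 arrays were below that limit for 31.7% of all probe sets. The log2 fold changes of these 9 ran from -0.15 for BGLU19 to 0.24 for BGLU31, with a median of -0.021, and 0 of them passed an unadjusted p of 0.05 in limma, against 15.3% of all probe sets. The 10 members above the limit on all 4 arrays had a median of 0.10, with 5 above 0 and 5 below. Probe sets differ in brightness for the same amount of RNA and signal above background was not tested, so neither an order of transcript abundance nor absence of a transcript was read from these levels.

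**Figure D4:**
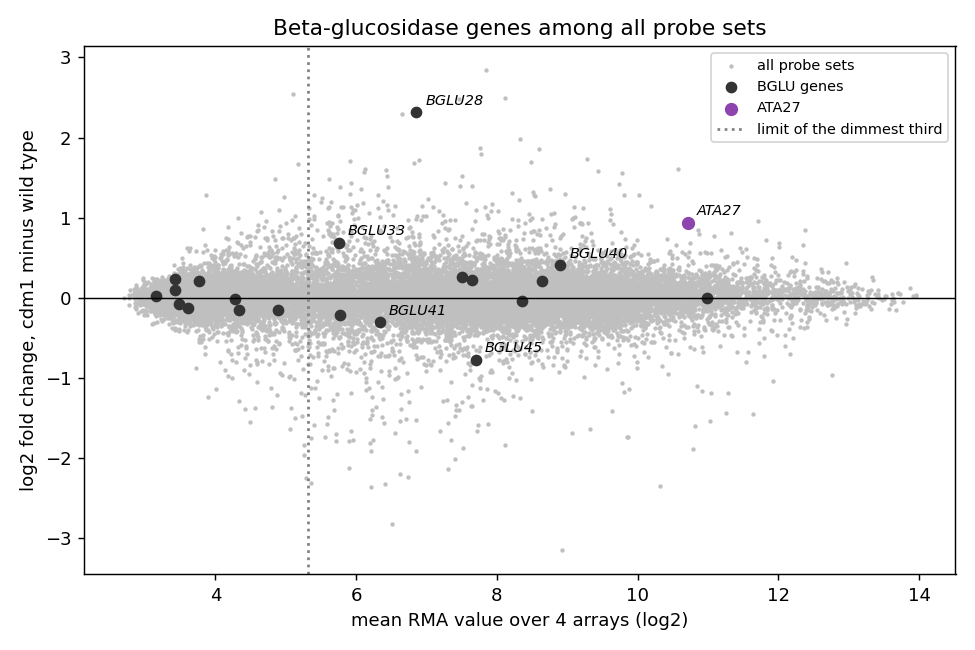
Mean RMA value over the 4 arrays (log2, horizontal axis) against log2 fold change (cdm1 minus wild type, vertical axis) for all 22746 probe sets in grey, the BGLU genes in black and ATA27 in purple, with a dotted line at 5.32. The 9 dim members lie near 0 on the left. BGLU28 at 2.31 stands near the upper edge of the cloud, and ATA27 at 0.94 is above most probe sets of like brightness.

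Of the 21 members, 11 stood directly next to another member in the order of protein-coding genes, in 5 runs. Besides the runs of BGLU15, BGLU28 and BGLU29 and of BGLU45 and BGLU46, these were BGLU27 with BGLU16, BGLU31 with BGLU32, and BGLU43 with BGLU44. The log2 fold changes were -0.079 and 0.22 in the first of these 3 pairs, 0.24 and 0.021 in the second, and -0.021 and -0.0043 in the last. The widest differences within runs were between BGLU28 and its neighbours and between BGLU45 and BGLU46.

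ATA27 has no such GH1 neighbour. On one side it lies beside a row of genes for extracellular lipases (EXL), proteins of the pollen coat. Of the 5 nearest protein-coding genes on either side, 3 on the EXL side and 3 on the other side had a probe set of 1 gene. EXL5 read 7.29 and 7.39 in cdm1 and 6.88 and 5.83 in wild type, for a log2 fold change of 0.99 (SE 0.32, adjusted p in limma = 0.230). EXL3 was at 0.41 (SE 0.13) and EXL2 at 0.57 (SE 0.23). EXL2 read 6.06 and 5.35 in cdm1 and 5.20 and 5.07 in wild type, with both wild type values below 5.32. All 3 EXL genes had both cdm1 values above both wild type values, as did 23.7% of all probe sets, and none passed the test, which 1.33% of all probe sets did.

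On the far side AT1G75960 read 5.09 and 4.83 in cdm1 and 5.33 and 5.31 in wild type, for a log2 fold change of -0.36 (SE 0.12, adjusted p in limma = 0.228). AT1G75980 was at 0.0096 (SE 0.11) and AT1G75990 at 0.089 (SE 0.10), each with genotypes that overlapped.

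**Figure D5:**
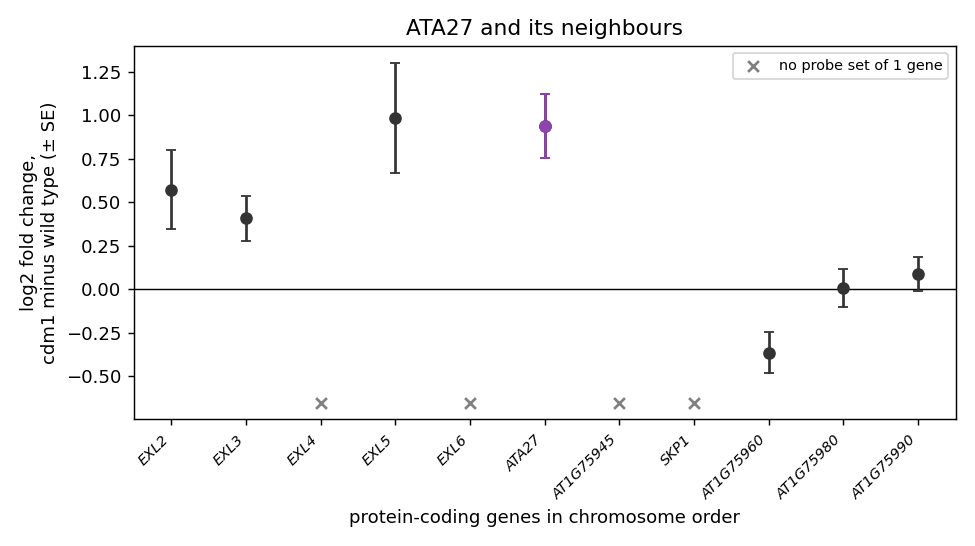
Log2 fold change (cdm1 minus wild type, ± SE of limma's moderated model) of ATA27 in purple and of its 5 nearest protein-coding genes on either side, in chromosome order. Crosses mark genes without a probe set of 1 gene. EXL2, EXL3, EXL5 and ATA27 lie between 0.41 and 0.99, and the measured genes on the other side between -0.36 and 0.089.

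Other tapetum genes were set beside ATA27, and the EXL genes above are among them. Of 26 listed genes, 8 were measured, and 1 was called higher, 0 lower and 7 not called (1.33% of all probe sets were called). The called gene was SHT, the spermidine hydroxycinnamoyl transferase of the pollen wall, which read 10.01 and 10.28 in cdm1 and 8.78 and 8.05 in wild type (log2 fold change 1.73, SE 0.24, adjusted p in limma = 0.0367). Its call was lost without wild type replicate 1 (log2 fold change 2.10, adjusted p in limma = 0.0749) and without wild type replicate 2 (1.37, 0.140), settings in which limma called 0 of all probe sets (1619 and 2133 at an unadjusted p of 0.05). Without cdm1 replicate 2, limma called 4 tapetum genes and 1040 probe sets in all. The median log2 fold change of the 8 was 0.47, against 0.0036 over all probe sets, with 7 above 0 and 1 below. The 8 include EXL1, EXL2, EXL3 and EXL5, at 0.54, 0.57, 0.41 and 0.99. A9 was at 0.12 and AMS at 0.18, both smaller differences. The mean level of the 8 was 9.34 and 9.25 in cdm1 and 8.90 and 8.72 in wild type. The median and the mean level moved the same way as ATA27, and their part in its difference was not tested. The aspartic protease gene UNDEAD was on the other side, at 8.57 and 8.78 in cdm1 and 8.99 and 9.63 in wild type (log2 fold change -0.64, SE 0.21, adjusted p in limma = 0.245).

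The GH1 family counts 48 listed loci, of which 24 beyond the members and those named next were not analysed here. PYK10 (BGLU23), the main ER body glucosidase of roots, carries another symbol and so fell outside the rule. It read 4.04 and 4.37 in cdm1 and 3.99 and 3.95 in wild type, a dim level with a log2 fold change of 0.24 (SE 0.13, adjusted p in limma = 0.455). A probe set shared by BGLU21 and BGLU22, which encode scopolin glucosidases of roots, read 3.39 and 3.20 in cdm1 and 3.14 and 3.18 in wild type (log2 fold change 0.14, SE 0.10), and cannot be split between these genes.

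Genes listed under the ER body, the compartment that holds PYK10, were measured for 6 of 15. They included jacalin-related lectin (JAL) genes, whose products were not taken to make or fill the compartment. Of the 6 measured, 1 was called higher, 0 lower and 5 not called, with a median log2 fold change of 0.059. Over all probe sets 1.33% were called, 0.602% as higher. The called gene was JAL34, a jacalin-related lectin. It rose to 5.86 and 5.93 in cdm1, against 4.83 and 4.71 in wild type (log2 fold change 1.12, SE 0.097, adjusted p in limma = 0.00895), with both wild type values below 5.32. This call was lost without wild type replicate 1 (log2 fold change 1.18) and without wild type replicate 2 (1.06). Those settings lost every call on the array. NAI1, the transcription factor of ER bodies, was at -0.014 (SE 0.13), with all 4 arrays below 5.32. NAI2, which ER body formation needs, was at -0.10 (SE 0.11). JAL22 and JAL33 were also below 5.32 on all 4 arrays. JAL23 read 10.35 and 10.09 in cdm1 and 9.29 and 10.06 in wild type (log2 fold change 0.54, SE 0.25, adjusted p in limma = 0.376). Its genotypes did not overlap, as in 47.3% of all probe sets.

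Genes around myrosinases and glucosinolate transport, the system in which BGLU28 works, were measured for 3 of 13 listed, and limma called 0 of them (2 at an unadjusted p of 0.05, both higher). Of all probe sets, 1.33% were called and 15.3% had such an unadjusted p, 7.70% as higher. FAMA, a transcription factor needed for guard cells and for the myrosin cells that store myrosinase, had the smallest p, reading 6.73 and 6.80 in cdm1 and 6.32 and 6.43 in wild type (log2 fold change 0.39, SE 0.096, adjusted p in limma = 0.152). The glucosinolate transporter gene GTR2 was at 0.38 (SE 0.13) and GTR1 at 0.13 (SE 0.12).

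Glycosyltransferases make the kinds of glycosides that GH1 enzymes open. Of 11 listed, 10 were measured, with 1 called higher, 0 lower and 9 not called, and a median log2 fold change of 0.19. The share called over all probe sets was 1.33%, with 0.602% higher. The called gene was UGT79B6, a flavonol glycosyltransferase of the tapetum and pollen, which rose to 7.37 and 7.43 in cdm1, against 6.49 and 6.37 in wild type (log2 fold change 0.97, SE 0.096, adjusted p in limma = 0.0136). Without wild type replicate 1 or 2 the UGT79B6 call was lost (log2 fold change 1.03 and 0.91), as was every other call on the array. UGT72E2, which encodes a glucosyltransferase of the monolignols that BGLU45 and BGLU46 release, read 7.11 and 6.89 in cdm1 and 6.65 and 6.35 in wild type (log2 fold change 0.50, SE 0.14, adjusted p in limma = 0.183). The related UGT72E1 was at -0.16 (SE 0.15) and UGT72E3 at -0.058 (SE 0.12), both dim. UGT71C5 and UGT71B6, which form the abscisic acid glucose ester that BGLU33 opens, were at 0.13 (SE 0.097) and 0.16 (SE 0.096). Of these, UGT71B6 was dim, between 3.54 and 3.80 over the arrays.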

How the data were processed

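Total RNA (500 ng per sample, per the labels' protocols) was hybridised to 4 Affymetrix arrays, 2 per genotype. Each array has 1 deposited log2 value per probe set, made by the authors with RMA and the R package affy, per the submitters' processing notes (versions and genome build: not given in the sources used here). That they are on a log2 scale follows from their range, 2.64 to 14.0. Scanner files and detection calls were not used here, so signal above background was not tested. The number of arrays limits the precision.

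Gene names came from GEO's platform annotation (1 symbol for 13513, several for 503, none listed for 8730). Loci and gene order came from RefSeq's TAIR10.1 gene table. None of the 21 members' probe sets carries Affymetrix's suffix for shared transcripts. Where a listed locus had several probe sets, the one with the highest mean was used.

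Genotype was the only term in limma 3.58.1 (R 4.3.3), two-sided, adjusted over 22746 probe sets (2 residual and 4.00 prior degrees of freedom). The step was also run on simulated data, with normal noise and variances drawn from limma's own fitted prior. That run therefore does not check the model's assumptions. Named genes were ATA27, all called members, the 5 highest and 5 lowest members by wild type level, the 5 largest differences each way, list members called or with the smallest p, and ATA27's neighbours; the other members and some list genes were named after their values were seen. Members and lists were chosen with earlier results of these data known. Each result was recomputed after quantile normalising again, after centring arrays on their medians, without the dimmest 33.3%, with a variance trend (plain and robust), with a block for replicate number, and without each array in turn.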

Additional observations from a re-analysis of the deposited data

How the results depend on the processing

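Of the 21 members, 14 kept the sign of their log2 fold change in all 10 alternatives, among them ATA27, BGLU28, BGLU33, BGLU40, BGLU41 and BGLU45, and 7 turned in at least 1. BGLU44 turned after median centring (0.0064). When 1 array was left out, the turned genes ran from -0.098 to 0.28 (BGLU24), -0.0028 to 0.045 (BGLU32), -0.22 to 0.21 (BGLU44), -0.045 to 0.0032 (BGLU43), -0.30 to 0.042 (BGLU36), -0.31 to 0.0067 (BGLU19) and -0.44 to 0.0039 (BGLU46), and ATA27 ran from 0.72 to 1.16. ATA27 passed with the robust trend at 0.94 (limma adjusted p = 0.0396). The variance trend gave 1 called member (BGLU28) and the robust trend 1 (ATA27), and leaving out 1 array gave 0 to 2. Over the same left-out arrays limma called 0 to 1 ER body gene, 0 to 2 glycosyltransferase genes and 0 to 4 tapetum genes. Without either wild type array limma called 0 of all probe sets (1619 and 2133 at an unadjusted p of 0.05), and without cdm1 replicate 2 it called 1040; the cause was not tested. A replicate block for the array numbers left limma with 0 calls on the whole array (3110 had an unadjusted p under 0.05), and so 0 members, 0 ER body, 0 glycosyltransferase and 0 tapetum genes. The block leaves 1 residual degree of freedom, and deviations of same-numbered arrays correlated at -0.066, so the numbers were not taken to pair the samples. The median over the members was 0.21 when the dimmest 33.3% were removed, with 12 of 21 members kept, and 0.0049 to 0.084 with 1 array left out. ATA27 minus the median of the others was 0.73 when the dimmest 33.3% were removed, and 0.68 to 1.15 with 1 array left out.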

Other observations

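BGLU28 is known as a marker of sulphur shortage, so other genes of that response were looked up after its value had been seen. Of 14 such genes, 1 had a named probe set. SDI2, a repressor of glucosinolate synthesis under sulphur shortage, read 8.37 and 8.01 in cdm1 buds and 7.10 and 7.68 in wild type buds. The genotypes did not overlap, and the log2 fold change was 0.80 (SE 0.22, limma adjusted p = 0.176). In both genes cdm1 replicate 1 was the highest array and wild type replicate 1 the lowest. The same order held in BGLU16, BGLU29, BGLU31, BGLU33 and BGLU42, and in the probe set shared by BGLU21 and BGLU22. Among the listed genes it held in JAL23, JAL33, GTR2, UGT78D2 and UGT71B6. Its share over all probe sets was not counted. It is therefore not particular to BGLU28 and SDI2, and a link between these genes was not tested.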
